A study of Arabidopsis thaliana with 12 samples.

Results

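The loss of the histone variant H2A.Z was followed in Arabidopsis thaliana seedlings in which the histone variant H3.3 was also knocked down. The comparison sets 3 RNA-seq libraries of h3.3kd;h2a.z, called the double mutant here, against 3 libraries of h3.3kd, so it rests on 6 of the 12 libraries of the series. These were chosen by their labelled genotype and not by any measured value. Both groups carry the knockdown of H3.3, labelled as the line h3.3kd-1, and the double mutant also carries the h2a.z mutations. The other 6 libraries, 3 of h2a.z and 3 of the wild type Col, carry no H3.3 knockdown and were used as the second background. The fall of the H2A.Z transcripts was not equal in both backgrounds, as given below for HTA9. All seedlings were 7 days old and grew at 21 °C in short days. The alleles combined in h2a.z and the construct behind the knockdown, both not given in the sources used here, stay unnamed, and the knockdown is 1 line. Whole seedlings were sampled. No label states that replicates were grown separately, so each p-value below reflects the spread among libraries that may be technical repeats.

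H2A.Z and H3.3 are variants of the core histones H2A and H3 that enter chromatin outside DNA replication. H2A.Z is placed by the SWR1 complex, mostly at the first nucleosomes of genes and along genes that respond to the environment, and in Arabidopsis it is known for its part in the warm-temperature transcriptome, in flowering time through FLC, and in immune and stress genes. H3.3 is placed by HIRA and ATRX and is most dense towards the ends of transcribed genes.

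The deposited values are TPM, which are relative abundances scaled to a fixed total per library and corrected for gene length. Across genes, libraries of the same genotype among these 6 had Pearson correlations of 0.989 to 0.996 on the log2 scale, and libraries of the double mutant with those of h3.3kd 0.965 to 0.973, where genes are not independent replicates. TPM does not keep the depth, but the steps of the low values show what 1 read weighed, relative to Col replicate 1. That weight was 0.853, 0.741 and 1.01 in the double mutant and 0.682, 0.781 and 0.651 in h3.3kd, so it was higher on the whole in the double mutant, whose low values rest on fewer reads. It was 3.85 in h2a.z replicate 1, whose low values are the least precise of the 12. Double mutant replicate 2 stood apart in its plastid transcripts, and the results this touches are given with and without it. The 4 green leaf markers RBCS1A, RCA, LHCB1.3 and LHCB2.1 summed to 78152, 77120.2 and 89156 TPM in the h3.3kd;h2a.z libraries, against 86465, 84018 and 89329.5 TPM in the h3.3kd libraries, so all 6 libraries held green tissue.

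The targeted H2A.Z transcripts were low in the double mutant, but not to the same degree. HTA8 (AT2G38810), an H2A.Z gene, had 0.0992, 0 and 0 TPM in the h3.3kd;h2a.z libraries, against 8.21, 9.71 and 7.49 TPM in the h3.3kd libraries (log2 -3.19, SE 0.13, adjusted p = 2.67e-10). HTA11 (AT3G54560), a second H2A.Z gene, had 1.66, 1.53 and 1.89 TPM in the h3.3kd;h2a.z libraries, against 19, 23.7 and 25.2 TPM in the h3.3kd libraries (log2 -3.13, SE 0.12, adjusted p = 1.02e-10). HTA8 was listed at 0 in 2 double mutant libraries, and neither gene overlapped between the groups. HTA9 (AT1G52740), the most abundant of these H2A.Z transcripts, had 55.6, 68.5 and 57.3 TPM in the h3.3kd;h2a.z libraries, against 123, 127 and 128 TPM in the h3.3kd libraries (log2 -1.05, SE 0.09, adjusted p = 4.54e-07). The double mutant thus kept 0.48 times the HTA9 TPM of h3.3kd, a level 35.7 times that of HTA11. With H3.3 unaltered HTA9 stood at 32.8 ± 4.07 TPM in h2a.z and 161 ± 8.5 TPM in Col (SD, n = 3 each), a larger fall (log2 -2.27, SE 0.09, adjusted p = 6.63e-11), and the difference of the effects was called (log2 1.22, SE 0.12, adjusted p = 1.36e-05). Which part of the HTA9 transcript the reads cover was not analysed here.

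The H3.3 transcripts mark the background that both groups share. HTR4 (AT4G40030) had 31.1, 41.2 and 33.9 TPM in the h3.3kd;h2a.z libraries, against 37.4, 36.9 and 34.2 TPM in the h3.3kd libraries, with overlapping groups, and HTR8 (AT5G10980) had 7.49, 12.8 and 10.2 TPM in the h3.3kd;h2a.z libraries, against 13.3, 13.2 and 11.8 TPM in the h3.3kd libraries. In Col these were at 386 ± 3.41 and 187 ± 4.36 TPM (SD, n = 3 each). HTR5 (AT4G40040), the remaining H3.3 gene, was the least reduced of the 3, with 186 ± 17.2 TPM in h3.3kd;h2a.z and 207 ± 2 TPM in h3.3kd (SD, n = 3 each; log2 -0.16, adjusted p = 0.0699), beside 249.9 ± 12.1 TPM in Col. H3.3 protein was not measured. HTR8 just passed the threshold (log2 -0.33, SE 0.12, adjusted p = 0.0483), and its call was lost without double mutant replicate 1 or 3, h3.3kd replicate 1, 2 or 3, h2a.z replicate 2 or 3, Col replicate 1, 2 or 3 (adjusted p = 0.0541 to 0.196). HTR4 and HTR5 did not pass the test, apart from HTR5 without double mutant replicate 2 (log2 -0.22, adjusted p = 0.0144).

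**Figure D1:**
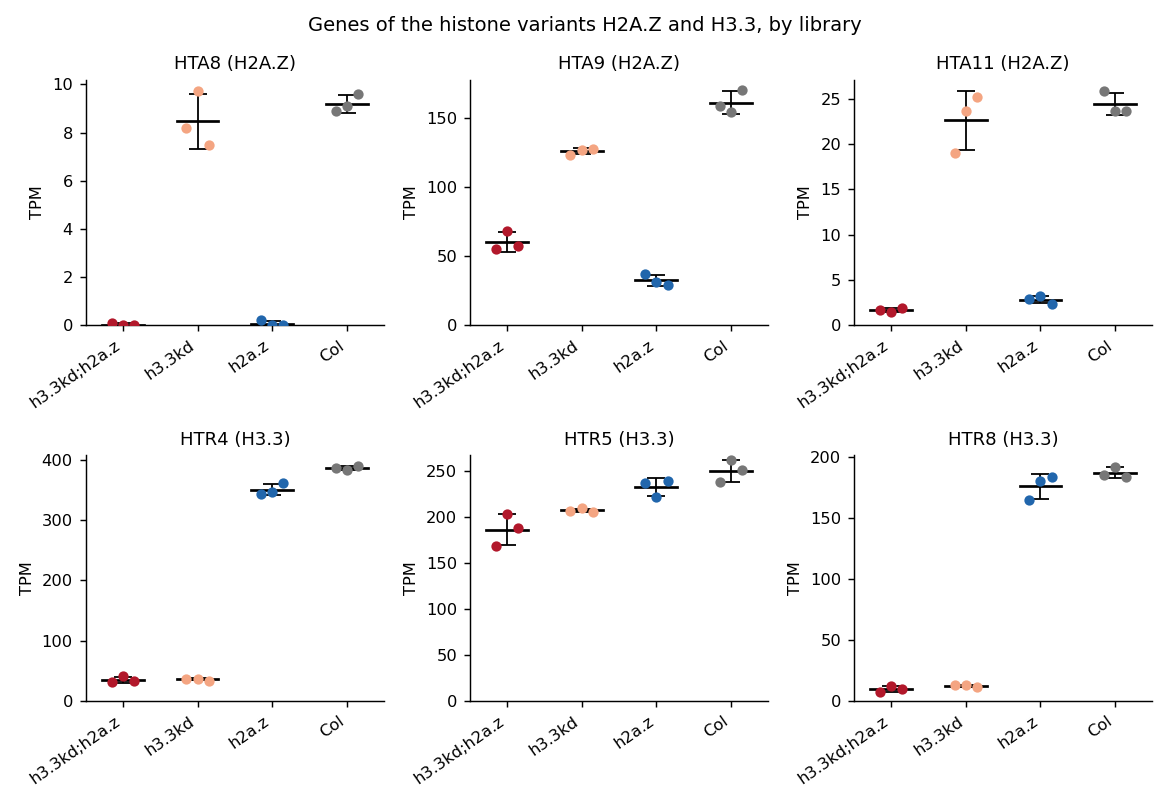
TPM of the 3 H2A.Z genes (HTA8, HTA9, HTA11) and the 3 H3.3 genes (HTR4, HTR5, HTR8) in each library. Points are libraries, horizontal lines are means of 3 libraries and error bars are SD. HTA9 averaged 60.5 TPM in the double mutant and 126 TPM in h3.3kd, while HTR4 and HTR8 are low in both.

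Over all 12 libraries 18851 genes averaged at least 1 TPM and were tested, and 6536 (34.7%) differed between the double mutant and h3.3kd at a Benjamini-Hochberg adjusted p below 0.05 in limma, and these are described as called. Of them 3932 (20.9% of the genes tested) were higher and 2604 (13.8%) lower in the double mutant. Most shifts were small, with a median size of 0.43 on the log2 scale among called genes. At least 2-fold differences, on the log2(TPM + 1) scale used throughout, were called for 264 genes that were higher (1.4%) and 289 that were lower (1.53%), and at least 4-fold ones for 41 (0.217%) and 43 (0.228%). The groups did not overlap in 8924 genes (47.3%). The balance of directions depends on the scaling of the libraries. With TPM rescaled by median ratios 3502 genes were called higher and 3461 lower, so the share of calls that were higher was 50.3%, against 60.2% without rescaling. The median over all genes tested was 0.03 with the deposited TPM and -0.01 after rescaling. In RNA from whole seedlings, fewer cells of a type and less RNA per cell cannot be told apart.

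The largest falls left almost no transcript. ESM1 (AT3G14210), which modifies the products of glucosinolate breakdown, had 0.311, 0.18 and 0.327 TPM in the h3.3kd;h2a.z libraries, against 65, 74 and 83.4 TPM in the h3.3kd libraries (log2 -5.88, SE 0.11, adjusted p = 3.19e-14). CNGC12 (AT2G46450), a cyclic nucleotide-gated cation channel linked to immunity, had 0.021, 0.201 and 0.0993 TPM in the h3.3kd;h2a.z libraries, against 55.2, 54.4 and 58.8 TPM in the h3.3kd libraries (log2 -5.69, SE 0.10, adjusted p = 3.19e-14). JAL33 (AT3G16450), a jacalin-related lectin, had 0.945, 1.4 and 1.23 TPM in the h3.3kd;h2a.z libraries, against 105, 103 and 92.5 TPM in the h3.3kd libraries (log2 -5.54, SE 0.11, adjusted p = 6.8e-14). Every double mutant library of these 3 genes was below 2 TPM and every h3.3kd library above 50. GSTU8, a glutathione transferase of the tau class, and CYP71B26, a cytochrome P450, fell by 4.64 and 4.15 on the log2 scale. AT3G18535, annotated as a tubulin-tyrosine ligase, was listed at 0 in all 3 double mutant libraries and at 12.4, 10.9 and 11.4 TPM in those of h3.3kd. Smaller falls in this group were those of AT2G43590 (a chitinase family member), AT2G40010 (ribosomal protein L10 family) and AT3G23510 (annotated as a cyclopropane-fatty-acyl-phospholipid synthase), at log2 -3.6, -3.26 and -3.22. The rest of the 12 largest falls were CYP83A1, MAM1 and HTA8. Each of the 12 was also called lower in h2a.z against Col. CNGC12 and JAL33 fell by a similar amount there (log2 -5.41 and -5.85), and ESM1 fell less (log2 -3.48).

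The largest rises were mostly of genes that were almost silent in h3.3kd. AT4G24420, annotated as an RNA-binding protein, had 32.3, 36.2 and 33 TPM in the h3.3kd;h2a.z libraries, against 0.35, 0.0802 and 0.0668 TPM in the h3.3kd libraries (log2 4.91, SE 0.13, adjusted p = 1.44e-12). CORI3 (AT4G23600), a cystine lyase induced by coronatine and jasmonate, had 28.5, 24.8 and 22.5 TPM in the h3.3kd;h2a.z libraries, against 0.908, 1.04 and 1.07 TPM in the h3.3kd libraries (log2 3.71, SE 0.09, adjusted p = 1.41e-12). Both were separated by more than 20 TPM between the groups. AT3G25719 (uncharacterized), AT5G66970 (a P-loop nucleoside triphosphate hydrolase family member), AT2G39240 (annotated as an RNA polymerase I initiation factor), AT3G21080 (ABC transporter-like) and ABCA9 (an ABC transporter) rose by log2 4.12, 3.86, 3.68, 3.53 and 3.32. AT2G25964 and AT1G50290, both uncharacterized, and AT1G65370, of the TRAF-like family, were already present in h3.3kd. They averaged 176 against 16.5 TPM, 128 against 14 TPM and 89 against 10.5 TPM, with the double mutant first in each pair. The remaining 2, ATCG00065 and ATCG01070, are plastid-encoded and are described with the organelle transcripts. They were not called in h2a.z against Col, where each of the other rises named here was also called higher.

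The genes of glucosinolate synthesis were lower as a group. Glucosinolates are sulfur-rich defence compounds of the mustard family, built from methionine (aliphatic) or tryptophan (indolic). All 15 tested genes of the aliphatic list were called lower in the double mutant and none higher, with a median log2 fold change of -1.33 beside 0.03 over all genes, and 13.8% of all genes called lower. One of these calls, IIL1, a subunit of isopropylmalate isomerase named after its values were seen, lay at the threshold (log2 -0.15, SE 0.06, adjusted p = 0.0482). The call was lost without double mutant replicate 2 or 3, h3.3kd replicate 1, 2 or 3, h2a.z replicate 2 or 3, Col replicate 2 (adjusted p = 0.0555 to 0.182), and also with nuclear genes only, the replicate block, a constant prior variance or the 6 libraries alone, which each left 14 of the 15. With H3.3 unaltered, 9 of the 15 were called lower and none higher, with a median of -0.34, beside 18.3% of all genes called lower there. The difference between the backgrounds was called for 11 of the 15, all in the negative direction, beside 17.5% of all genes called for it and 10.1% in the negative direction. A negative difference does not tell whether the double mutant stood below h2a.z or h3.3kd above Col, and both occurred among the genes below.

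The falls took in several steps of the aliphatic pathway. MAM1 (AT5G23010), which elongates the methionine side chain, had 0.28, 0.374 and 0.255 TPM in the h3.3kd;h2a.z libraries, against 14.1, 11.8 and 12.2 TPM in the h3.3kd libraries (log2 -3.39, SE 0.12, adjusted p = 8.85e-11). CYP79F1 (AT1G16410), which turns the elongated amino acids into aldoximes, had 0, 0 and 0.148 TPM in the h3.3kd;h2a.z libraries, against 8.31, 6.72 and 6.67 TPM in the h3.3kd libraries (log2 -2.97, SE 0.13, adjusted p = 7.72e-10). CYP83A1 (AT4G13770), which oxidises those aldoximes, had 1.23, 0.809 and 1.15 TPM in the h3.3kd;h2a.z libraries, against 42.2, 36.7 and 39.7 TPM in the h3.3kd libraries (log2 -4.3, SE 0.11, adjusted p = 1.44e-12). No library of one group reached the other in these 3 genes. For CYP83A1 the h2a.z libraries were at 11.5, 12.7 and 9.09 TPM and the Col libraries at 57.6, 58.1 and 65.3 TPM, a smaller fall than in the double mutant (difference log2 -1.95, SE 0.16, adjusted p = 1.8e-06). IPMDH1, an isopropylmalate dehydrogenase of chain elongation, averaged 5.63 against 41.9 TPM in the double mutant against h3.3kd (log2 -2.74, SE 0.18, adjusted p = 4.49e-08), and its difference between backgrounds was also called (log2 -1.02). IPMDH1 averaged 6.46 TPM in h2a.z and 23.1 TPM in Col, so its h3.3kd level was above Col and its double mutant level near h2a.z. CYP79F2, a neighbour and relative of CYP79F1 that may share reads with it, fell by 2.69 on the log2 scale. CYP79F2 averaged 1.98 TPM in the double mutant and 17.9 TPM in h3.3kd, beside 0.732 TPM in h2a.z and 5.99 TPM in Col.

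Of the 9 indolic genes, 8 were called lower and none higher (median -0.55), beside 13.8% of all genes called lower. With H3.3 unaltered, 3 were called higher and 3 lower (median -0.01), beside 28.9% and 18.3% of all genes, and 7 were called for the difference, all negative, beside 10.1%. MYB34 (AT5G60890), a transcription factor that activates the indolic branch, had 56.7, 50.4 and 50.3 TPM in the h3.3kd;h2a.z libraries, against 113, 109 and 102 TPM in the h3.3kd libraries (log2 -1.03, SE 0.07, adjusted p = 5e-08), without overlap. UGT74B1, the glucosyltransferase of the core pathway, averaged 37.6 against 71.6 TPM (log2 -0.93, adjusted p = 7.44e-06). CYP79B3 and CYP79B2, which make indole-3-acetaldoxime from tryptophan, were at log2 -0.76 and -0.55, both called. MYB51, another activator of this branch, was lower in the double mutant than in h3.3kd (log2 -0.67, SE 0.13, adjusted p = 0.00093) and higher in h2a.z than in Col (log2 0.61, SE 0.13, adjusted p = 0.00128), and the difference was called (log2 -1.28, SE 0.18, adjusted p = 0.000293).

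**Figure D2:**
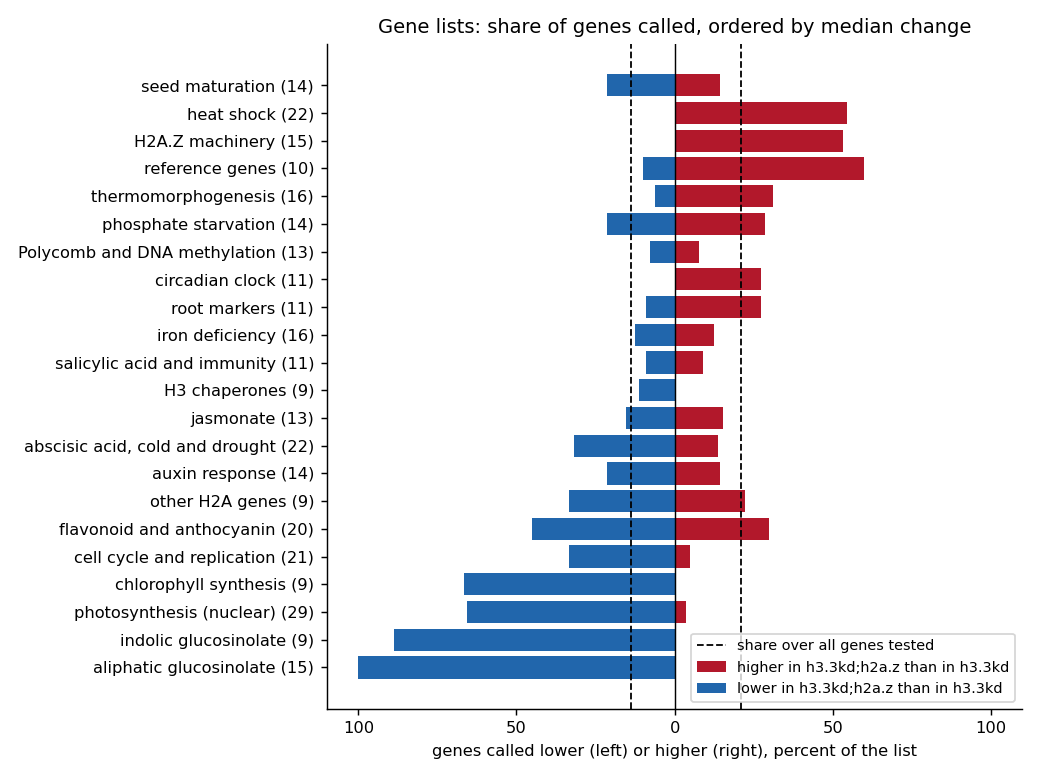
Share of each gene list called lower (blue, left) or higher (red, right) in the double mutant than in h3.3kd, in percent of the genes tested in the list (number in parentheses), for lists of at least 9 tested genes, ordered by their median change. Dashed lines give the shares over all genes tested, 13.8% lower and 20.9% higher; all 15 aliphatic glucosinolate genes lie on the left and 12 of 22 heat shock genes on the right.

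Many heat shock genes were higher in the double mutant at 21 °C. Of 22 tested members, 12 were called higher and none lower, with a median log2 fold change of 0.52, beside 20.9% of all genes called higher. Between h2a.z and Col, 16 were called higher and 1 lower (median 0.68), beside 28.9% and 18.3% of all genes. HSP70 (AT3G12580), a heat-inducible chaperone often used as a reporter of H2A.Z loss, had 117, 168 and 116 TPM in the h3.3kd;h2a.z libraries, against 50.5, 45.3 and 32.5 TPM in the h3.3kd libraries (log2 1.62, SE 0.15, adjusted p = 1.33e-06). The h2a.z libraries had 514, 587 and 588 TPM and the Col libraries 190.2, 163 and 167 TPM, a like fold from a higher base (log2 1.69), and the difference was not called (log2 -0.07, adjusted p = 0.848). In HSP70 TPM the double mutant libraries all lay above those of h3.3kd and overlapped those of Col.

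The other called members of the list rose by 0.46 to 1.69 on the log2 scale, beside HSP70 at 1.62. HSP18.2 (AT5G59720), a small heat shock protein, had 6.67, 6.02 and 7.88 TPM in the h3.3kd;h2a.z libraries, against 1.94, 1.43 and 0.991 TPM in the h3.3kd libraries (log2 1.69, SE 0.15, adjusted p = 1.06e-06). HSP90.1 (AT5G52640), the heat-inducible cytosolic HSP90, had 59.7, 64.3 and 53.7 TPM in the h3.3kd;h2a.z libraries, against 21.8, 23.9 and 18.5 TPM in the h3.3kd libraries (log2 1.43, SE 0.10, adjusted p = 1.26e-07). HSP17.8, another small heat shock protein, and HSFA2, a heat shock factor that sustains acquired thermotolerance, rose by log2 1.34 and 1.08, and neither overlapped between the groups. HSFA7A, another heat shock factor, rose less (log2 0.78, SE 0.18, adjusted p = 0.00322; named after its values were seen). Of the 10 members that were not called, HSP17.4 and HSP17.6C, both small heat shock proteins and also named after their values were seen, were at log2 -0.36 and -0.06 (adjusted p = 0.653 and 0.882).

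Both factor genes hold matches to the heat shock element just upstream. The element was searched as GAANNTTC or TTCNNGAA, each of which reads the same on both strands and which may overlap one another, in the 250 bases before the gene start of RefSeq TAIR10.1. HSFA2 held 3 matches and HSFA7A 4, and the stretches that hold them are shown because both genes rose. They lie on the plus strand at chr2:11135516-11135618 and chr3:19264929-19265031, ending 5 and 109 bases before the gene start, and the matches are in capitals.
HSFA2: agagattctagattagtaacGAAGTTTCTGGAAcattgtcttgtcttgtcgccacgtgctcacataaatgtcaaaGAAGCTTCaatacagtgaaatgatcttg
HSFA7A: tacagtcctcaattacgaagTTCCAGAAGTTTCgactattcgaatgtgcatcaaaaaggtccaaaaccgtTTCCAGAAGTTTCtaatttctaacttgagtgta
A match was found in 7 of the 22 heat shock promoters (31.8%) and in 15.5% of the promoters of all 18761 nuclear genes tested with an annotated start. Of the 7 heat shock genes with a match 3 were called higher, and of the 15 without a match 9 were. HSP17.4 held 4 matches and HSP17.6C 2, and neither was called. Among genes called at least 2-fold higher the element was found in 12.4%, and in 17% of those at least 2-fold lower. HSP70, HSP90.1, HSP18.2 and HSP17.8 held none of these letters in the window, which says nothing of the factors that act there. The G-box CACGTG, which is its own reverse complement, stood in 13.5% of the promoters of genes at least 2-fold lower, in 8.26% of those at least 2-fold higher and in 7.63% of all. The phosphate element GNATATNC and the evening element AAAATATCT, searched on both strands, were found in 4.59% and 1.38% of the promoters at least 2-fold higher, in 3.81% and 3.11% of those at least 2-fold lower, and in 5.42% and 2.45% of all.

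**Figure D3:**
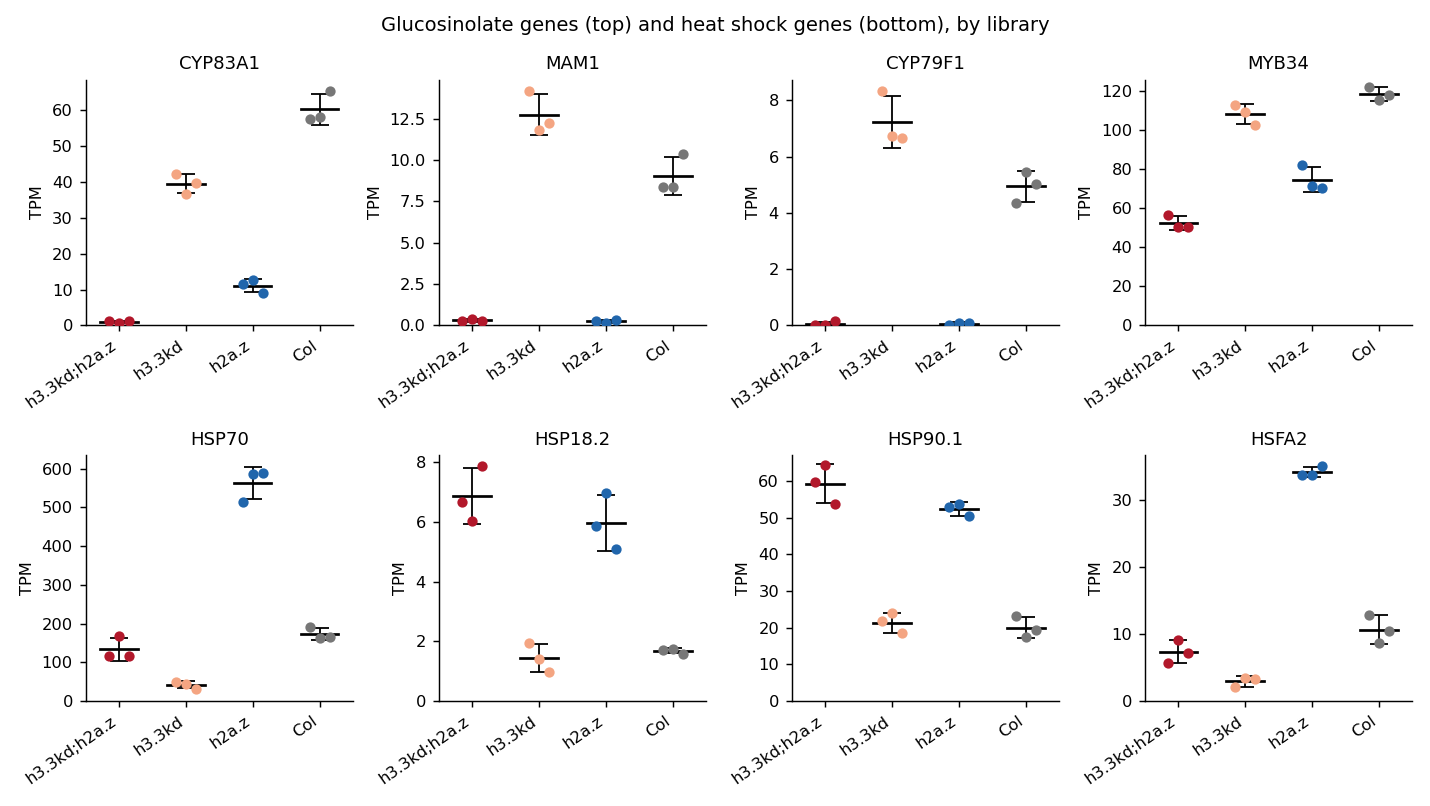
TPM per library of 4 glucosinolate genes (top) and 4 heat shock genes (bottom) in the 4 genotypes, with the mean and SD of 3 libraries. Each axis starts at 0 and has its own scale; the double mutant lies below h3.3kd in every glucosinolate gene shown and above it in every heat shock gene shown.

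The thermomorphogenesis list holds the regulators and targets of growth in the warmth, which H2A.Z is known to restrain. Of its 16 tested genes, 5 were called higher and 1 lower, beside 20.9% and 13.8% of all genes. PIF4 (AT2G43010), the bHLH factor at the centre of the warmth response, had 15.7, 15.2 and 14.3 TPM in the h3.3kd;h2a.z libraries, against 16.9, 14.3 and 15.2 TPM in the h3.3kd libraries (log2 -0.03, SE 0.08, adjusted p = 0.788), and these groups overlapped. In the other background it had 26.8, 23.7 and 25.2 TPM in the h2a.z libraries, against 15.6, 13.7 and 14.5 TPM in the Col libraries (log2 0.75, SE 0.08, adjusted p = 3.83e-06). The rise seen with H3.3 unaltered was thus not seen in the knockdown, and the difference was called (log2 -0.78, SE 0.12, adjusted p = 0.000401). YUC8, an auxin synthesis gene that PIF4 activates, and IAA19, an auxin-responsive gene, were at log2 0.01 (adjusted p = 0.943) and -0.17 (adjusted p = 0.663). ATHB2, a homeodomain gene of shade growth, averaged 14.4 against 8.5 TPM (log2 0.72, SE 0.15, adjusted p = 0.00172), and XTR7, a cell wall enzyme gene, 5.58 against 3.47 TPM (log2 0.55, adjusted p = 0.00925), with its call lost without h3.3kd replicate 3 (adjusted p = 0.0524). PIF3 and TAA1, another bHLH factor and an auxin synthesis gene, were called higher at log2 0.39 and 0.33. ELF3, a part of the evening complex that represses PIF4, was called lower (log2 -0.65, SE 0.12, adjusted p = 0.000946).

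Auxin-responsive genes gave 2 higher and 3 lower calls among 14 tested, beside 20.9% and 13.8% of all genes. IAA1, IAA17 and IAA4, all repressors of auxin signalling, were lower at log2 -0.87, -0.59 and -0.40. GH3.5, which conjugates auxin to amino acids, was higher at log2 0.55, and IAA2 was higher by log2 0.19. The IAA2 call gave an adjusted p of 0.101 after rescaling and was lost without double mutant replicate 3, or h3.3kd replicate 1 or 3 (adjusted p = 0.06 to 0.0888).

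All 8 tested flowering time genes were called, 3 higher and 5 lower, beside 34.7% called over all genes. The 5 lower calls are FLC and its relatives, and these stood without each library. Of the 3 higher calls, 1 remained without h3.3kd replicate 2 or 3, or at a threshold of 0.01. There were 2 without double mutant replicate 1 or 2, with rescaled TPM, no filter, the replicate block or the 6 libraries alone. FLC (AT5G10140), the repressor of flowering for which H2A.Z is needed, had 0.601, 0.607 and 0.446 TPM in the h3.3kd;h2a.z libraries, against 1.85, 2.01 and 1.3 TPM in the h3.3kd libraries (log2 -0.8, SE 0.13, adjusted p = 0.000301). Its levels were low in both groups, which did not overlap, beside 5.37 TPM in Col, and with a pseudocount of 0.1 its log2 fold change was -1.47. The relatives of FLC in this list fell too, MAF2 at log2 -0.86, MAF4 at -0.83, MAF3 at -0.75 and FLM at -0.52. SVP, another repressor, SOC1, an activator of flowering, and FRI, an activator of FLC, were called higher, by log2 0.29, 0.32 and 0.26, and are named after their values were seen. The SOC1 call was lost without h3.3kd replicate 2 or 3 (adjusted p = 0.0507 to 0.0654), the FRI call was lost without double mutant replicate 1 or 2, or h3.3kd replicate 2 or 3 (adjusted p = 0.069 to 0.152), and the SVP call was kept without any 1 library. None of the 8 was called for the difference between backgrounds. FT, TSF, CO and MAF5 were below the level needed for a test.

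Photosynthesis genes encoded in the nucleus were lower. Of 29 tested, 19 were called lower and 1 higher (median -0.33), beside 13.8% and 20.9% of all genes. In h2a.z against Col 21 were called lower and none higher (median -0.25), beside 18.3% of all genes called lower. PSAG (AT1G55670), a subunit of photosystem I, had 67.2, 60.1 and 70.8 TPM in the h3.3kd;h2a.z libraries, against 178, 191 and 192 TPM in the h3.3kd libraries (log2 -1.49, SE 0.08, adjusted p = 4.23e-09). LHCB4.2 (AT3G08940), a minor antenna protein of photosystem II, had 789, 789 and 933 TPM in the h3.3kd;h2a.z libraries, against 2265, 2233 and 2420.4 TPM in the h3.3kd libraries (log2 -1.47, SE 0.07, adjusted p = 1.21e-09). Every h3.3kd library of these 2 genes held over 2 times the TPM of every double mutant library, whereas the antenna genes LHCA4, LHCA1 and LHCB5 fell by 0.71, 0.62 and 0.60 on the log2 scale. The antenna and Rubisco small subunit genes have close copies that may share reads. The green leaf marker sum, most of which is RBCS1A and LHCB1.3, was 0.941 times h3.3kd (exact two-sided permutation p = 0.3, where 0.1 is the smallest that 3 against 3 libraries allow). Its members differed. LHCB2.1, an antenna protein of photosystem II, had 3234, 3024 and 3886 TPM in the h3.3kd;h2a.z libraries, against 4732, 4356 and 4722 TPM in the h3.3kd libraries, without overlap (log2 -0.45, SE 0.10, adjusted p = 0.0019). LHCB1.3, RBCS1A and RCA were at log2 -0.2, 0.08 and 0.08 and were not called (adjusted p = 0.0953, 0.467 and 0.385).

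Among 9 genes of chlorophyll synthesis, 6 were called lower and none higher (median -0.3), beside 13.8% of all genes called lower. PORB, a protochlorophyllide oxidoreductase, averaged 78.3 ± 14.2 TPM in h3.3kd;h2a.z and 167 ± 7.56 TPM in h3.3kd (SD, n = 3 each; log2 -1.1, SE 0.12, adjusted p = 5.08e-06). CAO, which makes chlorophyll b, and HEMA1, CHLD and GUN5, which act at earlier steps, were lower by smaller amounts, at log2 -0.63, -0.42, -0.42 and -0.30.

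The list of abscisic acid, cold and drought genes split, with 3 called higher and 7 lower among 22 tested, beside 20.9% and 13.8% of all genes. RD29B (AT5G52300), a desiccation-responsive gene, had 17.9, 19.9 and 18.2 TPM in the h3.3kd;h2a.z libraries, against 58.8, 53.8 and 37.6 TPM in the h3.3kd libraries (log2 -1.35, SE 0.15, adjusted p = 9.53e-06). In the other background its levels were 50.4 ± 10.2 TPM in h2a.z and 44.2 ± 4.79 TPM in Col (SD, n = 3 each), and the difference was called (log2 -1.52, SE 0.21, adjusted p = 0.000277). RAB18, a dehydrin, averaged 40.8 against 107 TPM (log2 -1.37, SE 0.20, adjusted p = 8.98e-05) and was lower by a similar amount in h2a.z than in Col (log2 -1.83). The cold-regulated COR15B and COR6.6 and the dehydrin LTI30 fell by 1.03, 1 and 0.8 on the log2 scale. In all, 8 members were called for the difference between backgrounds, each in the negative direction, beside 10.1% of all genes.

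Flavonoid and anthocyanin genes moved both ways, with 6 called higher and 9 lower among 20, beside 20.9% and 13.8% of all genes, and 5 lower without h3.3kd replicate 3. CHS (AT5G13930), which commits precursors to flavonoids, had 1855, 2112 and 2021 TPM in the h3.3kd;h2a.z libraries, against 1093, 1129.9 and 1056 TPM in the h3.3kd libraries (log2 0.87, SE 0.07, adjusted p = 6.53e-07). F3'H and UF3GT, a hydroxylase and a sugar transferase of the pathway, rose by log2 0.91 and 0.84. PAP2 (AT1G66390), a MYB factor that activates anthocyanin genes, had 2.22, 1.79 and 1.81 TPM in the h3.3kd;h2a.z libraries, against 4.15, 5.57 and 4.88 TPM in the h3.3kd libraries (log2 -0.99, SE 0.13, adjusted p = 3.7e-05), and TT8, its bHLH partner, fell by 0.92 on the log2 scale. The early synthesis gene was thus higher and these regulators lower, with no overlap in CHS or PAP2. PAP2 was not called in h2a.z against Col (log2 0.17) and was called for the difference (log2 -1.16, SE 0.18, adjusted p = 0.000646).

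Jasmonate genes gave 2 higher and 2 lower calls among 13, beside 34.7% called over all genes. Without double mutant replicate 1 there were 4 lower calls, and without its replicate 3 there were 4 higher ones. Beside CORI3, AOC1 (AT3G25760) was higher, with 19.6 ± 0.975 TPM in h3.3kd;h2a.z and 11 ± 0.897 TPM in h3.3kd (log2 0.79), and AOC2 (AT3G25770) lower, with 2.53 ± 0.22 TPM in h3.3kd;h2a.z and 17.7 ± 2.79 TPM in h3.3kd (log2 -2.4, SE 0.11, adjusted p = 1.28e-09; SD, n = 3 each). Both encode allene oxide cyclases of jasmonate synthesis and may share reads. JAZ9, a repressor of the pathway, fell by 0.46 on the log2 scale. Of 11 salicylic acid and immunity genes, SAG101, a partner of EDS1, was called higher (log2 0.55) and EDS5, which exports the precursor of salicylic acid, lower (log2 -0.31, adjusted p = 0.023). The EDS5 call was lost without double mutant replicate 2 or 3, or h3.3kd replicate 1 or 2 (adjusted p = 0.0633 to 0.0896). PR1 was listed at 0 in all 6 libraries of the comparison.

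The machinery that places or removes H2A.Z was partly higher, with 8 of 15 genes called higher and none lower (median 0.22), beside 20.9% of all genes called higher. NRP1 (AT1G74560), a histone chaperone of the NAP1 family, had 57.9, 52.7 and 50.7 TPM in the h3.3kd;h2a.z libraries, against 31.3, 32.9 and 27.8 TPM in the h3.3kd libraries (log2 0.79, SE 0.08, adjusted p = 3.1e-06). NRP2, its close relative, averaged 33.9 against 19.6 TPM (log2 0.75, SE 0.08, adjusted p = 5.18e-06), and their h3.3kd libraries lay below all double mutant libraries. INO80, an ATPase of a chromatin remodelling complex, and ARP4, a shared actin-related subunit, were higher by log2 0.45 and 0.37. SEF, a SWR1 subunit, was higher by log2 0.37 (adjusted p = 0.0202), but its call was lost without double mutant replicate 1 or 2, or h3.3kd replicate 1 or 2 (adjusted p = 0.0616 to 0.0921). The list had 4 members called higher without double mutant replicate 2 or without h3.3kd replicate 1, 5 without h3.3kd replicate 2 or 3, and 6, with 1 lower, without double mutant replicate 1. Between h2a.z and Col, 4 were called higher and 4 lower (median 0.02), beside 28.9% and 18.3% of all genes. For the difference 5 were called, all positive, beside 7.39% of all genes, and 3 without h3.3kd replicate 3.

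The counts of the other histone and chromatin lists stand beside 20.9% higher and 13.8% lower calls of all genes. HTR3 (AT3G27360), an H3.1 gene, had 0.509, 0.53 and 0.481 TPM in the h3.3kd;h2a.z libraries, against 9.19, 11.1 and 11.2 TPM in the h3.3kd libraries (log2 -2.93, SE 0.12, adjusted p = 3.46e-10), and fell likewise in h2a.z against Col (log2 -2.54). The remaining H3.1 genes changed little. HTR1 was higher by log2 0.26 (adjusted p = 0.0117), a call lost without double mutant replicate 1 (adjusted p = 0.0519), and HTR2, HTR9 and HTR13 were at log2 -0.09, -0.20 and -0.02 and were not called. Of 9 other H2A genes, HTA12 and HTA3 were called higher (log2 0.5 and 0.41) and HTA6, HTA10 and HTA13 lower (log2 -0.55, -0.37 and -0.37). The HTA13 call was lost without double mutant replicate 2 or 3, or h3.3kd replicate 2 or 3 (adjusted p = 0.0603 to 0.135). Histone genes are near-identical in sequence and their separate values are uncertain. Of the linker histones, HIS1-3 and H1.1 rose by log2 0.4 and 0.27, and H1.2 was at 0.04 and was not called. The HIS1-3 call was lost without double mutant replicate 2, or h3.3kd replicate 3 (adjusted p = 0.0761 to 0.0878). Of 9 H3 chaperone genes 1 was called, a share below the 34.7% of all genes, namely FAS1 of the CAF-1 complex (log2 -0.46, adjusted p = 0.0291), a call lost without double mutant replicate 2, or h3.3kd replicate 2 or 3 (adjusted p = 0.0801 to 0.14). Among 13 Polycomb and DNA methylation genes 2 were called, again a share below that of all genes. ROS1 (AT2G36490), a DNA demethylase, had 9.8, 7.4 and 8.83 TPM in the h3.3kd;h2a.z libraries, against 3.33, 3.53 and 3.66 TPM in the h3.3kd libraries (log2 1.1, SE 0.11, adjusted p = 2.33e-06), without overlap, and EMF2, a Polycomb subunit, was called lower at log2 -0.25 (adjusted p = 0.0311), a call lost without double mutant replicate 1 or 3, or h3.3kd replicate 2 or 3 (adjusted p = 0.0583 to 0.107).

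The remaining lists gave few calls, moved both ways or rested on single libraries, and their counts are to be read beside the 20.9% higher and 13.8% lower calls of all genes. Of 11 clock genes 3 were higher, namely LUX, ZTL and LHY at log2 0.46, 0.23 and 0.20. The ZTL call was lost without double mutant replicate 1 or 2, or h3.3kd replicate 1, 2 or 3 (adjusted p = 0.0504 to 0.0858), and the LHY call was lost without double mutant replicate 1, or h3.3kd replicate 3 (adjusted p = 0.0511 to 0.0526). After rescaling the ZTL call was lost too (adjusted p = 0.0654). Of 16 iron deficiency genes BHLH38 and IMA3, a bHLH factor and a signalling peptide, were higher (log2 1.13 and 0.48), and BTS and ZIF1, an E3 ligase and a transporter, lower (log2 -0.59 and -0.37). IMA3 averaged 1.34 ± 0.128 TPM in h2a.z and 7.21 ± 0.487 TPM in Col in the other background (SD, n = 3 each), so the difference was called (log2 2.29, SE 0.20, adjusted p = 3.73e-06). The IMA3 call in the double mutant was lost without double mutant replicate 1, or h3.3kd replicate 1 or 2 (adjusted p = 0.0524 to 0.08), and the ZIF1 call was lost without double mutant replicate 2, or h3.3kd replicate 3 (adjusted p = 0.0583 to 0.077). Without h3.3kd replicate 1 the list had 4 lower calls, and without h3.3kd replicate 3 it had 4 higher ones.

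The next counts also stand beside 20.9% higher and 13.8% lower calls of all genes. Phosphate starvation genes gave 4 higher and 3 lower calls among 14, led by PAP17, an acid phosphatase (log2 0.68, SE 0.13, adjusted p = 0.001), PHO1;H1, a phosphate exporter (log2 -0.62), and SRG3, a phosphodiesterase (log2 0.56). RNS1 and PHT1;4, a ribonuclease and a phosphate transporter, were lower at log2 -0.51 and -0.44, and the RNS1 call was lost without double mutant replicate 1, or h3.3kd replicate 1 or 2 (adjusted p = 0.0917 to 0.0937). Without h3.3kd replicate 3 the list had 2 higher calls. Of 21 cell cycle and replication genes 1 was called higher and 7 lower, but this count was 16 lower without double mutant replicate 1 and 2 lower without replicate 2, and 3 without double mutant replicate 3 or h3.3kd replicate 3. CYCB1;2 and CYCB1;4, mitotic cyclins, averaged 6.47 against 10.6 TPM and 3.44 against 5.91 TPM, the double mutant first, and the CYCB1;2 call was lost without double mutant replicate 2 (adjusted p = 0.0538). CYCB1;3, a further cyclin, and the kinase genes CDKB1;2 and CDKB1;1 were called lower at log2 -0.63, -0.59 and -0.48. Each of these calls was lost without double mutant replicate 2 or 3, or h3.3kd replicate 3 (adjusted p = 0.0748 to 0.205). Those of CYCB1;3 and CDKB1;1 were also lost without any 1 Col library (adjusted p = 0.0503 to 0.0616). Of 7 DNA damage genes TSO2, a ribonucleotide reductase subunit, was called lower (log2 -0.47), and SMR5 was not analysed here. Among 6 senescence genes, the regulator ORE1 and SEN1 were lower (log2 -0.65 and -0.45) and SGR1, which starts chlorophyll breakdown, and SAG21 higher (log2 0.27 and 0.26). The SAG21 call was lost without double mutant replicate 1 or 2, or h3.3kd replicate 3 (adjusted p = 0.0537 to 0.0789). SEN1 fell more in h2a.z against Col (difference log2 1.11, SE 0.15, adjusted p = 0.000264).

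Seed genes differed within themselves. Of 14 tested, 2 were called higher (14.3%) and 3 lower (21.4%), beside 20.9% and 13.8% of all genes, although the median was 0.87. EM6 (AT2G40170), a late embryogenesis protein, had 4.77, 7.75 and 5.88 TPM in the h3.3kd;h2a.z libraries, against 32.9, 27.7 and 16.2 TPM in the h3.3kd libraries (log2 -1.86, SE 0.27, adjusted p = 9.36e-05), and the seed regulators ABI3 and ABI5 fell by 1.09 and 0.77 on the log2 scale. SESA2 (AT4G27150), a 2S storage albumin, had 16.5, 35.6 and 41.1 TPM in the h3.3kd;h2a.z libraries, against 8.48, 5.59 and 8.18 TPM in the h3.3kd libraries (log2 1.85, adjusted p = 0.00996). Its 3 double mutant libraries were unequal, and the sum of the 11 seed storage and oil body markers shared this, with 132, 386 and 319 TPM in the h3.3kd;h2a.z libraries, against 104, 79.5 and 95.2 TPM in the h3.3kd libraries. That sum was 19.7, 21.8 and 385 TPM in h2a.z, so 1 library of that group stood as high, against 44.4, 29.6 and 25.7 TPM in Col. Most of the sum in the double mutant was storage protein transcripts. Of its oil body genes, OLEO1 and OLEO2 overlapped between the double mutant and h3.3kd, while OLEO4 was higher in the double mutant without overlap. The other higher call, SESA4, was lost without double mutant replicate 3, h3.3kd replicate 1 or 3, Col replicate 1, 2 or 3 (adjusted p = 0.052 to 0.215). After rescaling the SESA4 call was lost too (adjusted p = 0.0585). Without h2a.z replicate 3, which enters the shared estimate of the spread, 7 of the 14 were called higher.

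Markers of other organs were followed as a check of tissue make-up. Of 11 tested root genes 3 were called higher and 1 lower, beside 20.9% and 13.8% of all genes. SCR, which patterns the ground tissue, rose by log2 0.39 (adjusted p = 6.31e-05), PRP3 and WOX5 had weaker calls (adjusted p = 0.0168 and 0.0483), and RHD6, a root hair factor, was lower (adjusted p = 0.034). The groups overlapped in PRP3, WOX5 and RHD6. The PRP3 call was lost without double mutant replicate 1 or 3, or h3.3kd replicate 3 (adjusted p = 0.0541 to 0.0864), the WOX5 call was lost without double mutant replicate 1 or 3, h3.3kd replicate 1 or 2, h2a.z replicate 2 or 3, Col replicate 1 or 2 (adjusted p = 0.0522 to 0.202), and the RHD6 call was lost without double mutant replicate 2 or 3, or h3.3kd replicate 1, 2 or 3 (adjusted p = 0.0532 to 0.136). The 5 root tip markers summed to 144, 124 and 124 TPM in the h3.3kd;h2a.z libraries, against 103, 98.5 and 103 TPM in the h3.3kd libraries (exact two-sided permutation p = 0.1). Most of this sum is SCR, with 119, 108 and 108 TPM in the h3.3kd;h2a.z libraries, against 86.9, 81.6 and 85.3 TPM in the h3.3kd libraries, while the groups overlapped in PLT1, PLT2, SHR and WOX5. PLT1, with 1.67, 0.544 and 0.801 TPM in the h3.3kd;h2a.z libraries, against 1.04, 1.62 and 1.11 TPM in the h3.3kd libraries, was lower in 2 of 3 double mutant libraries than in all of h3.3kd. The sum of the 5 root hair markers was 70.1, 47.5 and 60.1 TPM in the h3.3kd;h2a.z libraries, against 51.4, 52.5 and 45.2 TPM in the h3.3kd libraries (exact p = 0.3). Most of it is PRP3. RSL4 went the other way without overlap, with 1.89, 2.1 and 1.3 TPM in the h3.3kd;h2a.z libraries, against 2.31, 2.69 and 2.44 TPM in the h3.3kd libraries. COBL9 also averaged lower in the double mutant, with overlap. The 7 flower markers summed to 1.31, 1.04 and 1.41 TPM in the h3.3kd;h2a.z libraries, against 0.365, 0.26 and 0.487 TPM in the h3.3kd libraries, without overlap, at 3.37 times h3.3kd (exact two-sided permutation p = 0.1). Their sums were low in TPM, with AG at 0 in 5 and AP1 at 0 in 3 of the 6 libraries. In the double mutant most of the flower sum was PI and SEP3, neither of which overlapped between the groups. PI averaged 0.714 against 0.0515 TPM and SEP3 0.4355 against 0.173 TPM, the double mutant first. AP1, SEP2 and SHP1 averaged lower in the double mutant, and AG and AP3 were above h3.3kd only in double mutant replicate 1. Of the meristem genes KNAT1 was called higher (log2 0.33) and STM was not (log2 0.2, adjusted p = 0.206). The part of tissue make-up in the results above was not tested. Of 10 genes often used as references, 6 were called higher and 1 lower, beside 20.9% and 13.8% of all genes. With rescaled TPM 4 were called higher and 1 lower, beside 3502 and 3461 of all 18851 genes tested. The largest changes with the deposited TPM were those of ACT8, UBQ10 and EF1A at log2 0.42, 0.38 and 0.37, with UBC9 lower at -0.34 and UBC21 higher at 0.34.

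Plastid-encoded transcripts were higher in the double mutant. Of 73 tested, 58 were called higher and none lower, with a median of 1.29 on the log2 scale, beside 20.9% of all genes called higher and a median of 0.03. Their sum was 1864, 4198 and 2268 TPM in the h3.3kd;h2a.z libraries, against 1547, 1455 and 1518 TPM in the h3.3kd libraries (exact two-sided permutation p = 0.1). The mean ratio was 1.84, and 1.37 without double mutant replicate 2, the highest library. Without that library 45 of the 73 were called higher and 2 lower (median 0.85). In the other background the sums were 1806, 1658 and 1686 TPM in the h2a.z libraries, against 1929, 2055 and 1899.7 TPM in the Col libraries, so the sums were lower in h2a.z. Of the 73 genes, 7 were called lower there and 1 higher (median -0.19), fewer than the 18.3% and 28.9% of all genes, with 13 lower and 5 higher without double mutant replicate 2 and 4 of each without Col replicate 2. For the difference 39 of the plastid genes were called, all positive, beside 7.39% of all genes. This count was 37 without double mutant replicate 2 and 25 without h3.3kd replicate 2. ATCG01070, among the 12 largest rises, had 21.1, 73.6 and 32.1 TPM in the h3.3kd;h2a.z libraries, against 4.43, 2.79 and 7.18 TPM in the h3.3kd libraries (log2 2.78, SE 0.36, adjusted p = 3.29e-05), and ATCG00065 had 14.9, 23.2 and 27.2 TPM in the h3.3kd;h2a.z libraries, against 1.19, 0.68 and 6.24 TPM in the h3.3kd libraries (log2 2.89, SE 0.38, adjusted p = 3.97e-05). Without double mutant replicate 2 their log2 fold changes were 2.29 (adjusted p = 4.07e-05) and 2.83 (adjusted p = 0.000222). The 68 mitochondrial genes summed to 120.3, 223 and 139.6 TPM in the h3.3kd;h2a.z libraries, against 97.3, 109 and 103 TPM in the h3.3kd libraries, a ratio of 1.56 that was 1.26 without double mutant replicate 2. Of the 17 mitochondrial genes tested, 6 were called higher and none lower, beside 20.9% of all genes called higher, and 2 were higher without double mutant replicate 2. Organelle transcripts mostly lack long poly(A) tails. Whether the values follow from the selection of RNA, a step not given in the sources used here, was not tested.

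**Figure D4:**
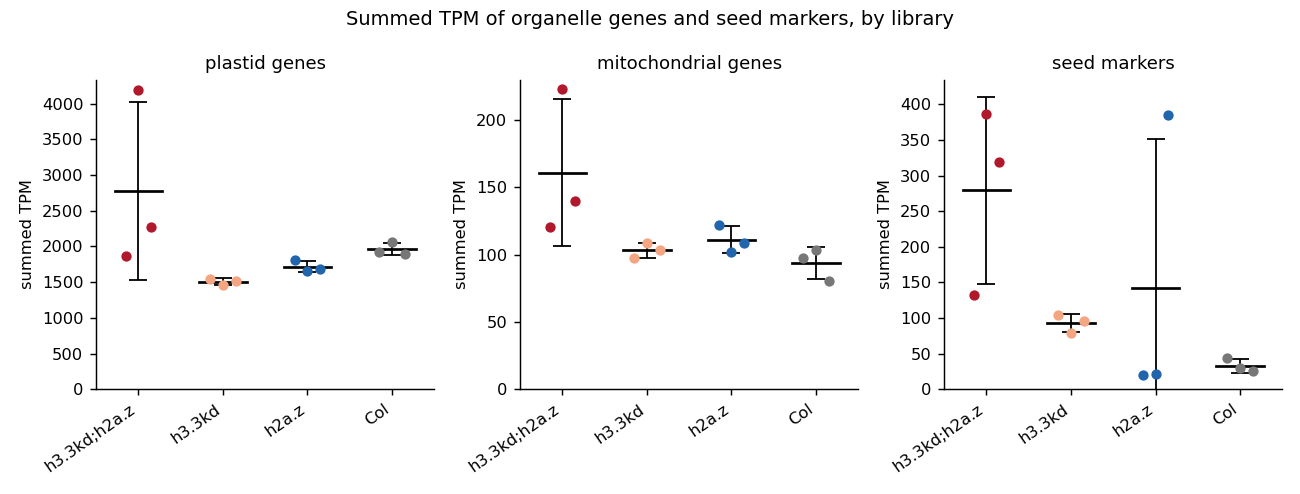
Summed TPM of the plastid genes, the mitochondrial genes and the seed markers in each library, with the mean and SD of 3 libraries per genotype. Double mutant replicate 2 is the highest library in each panel, at 4198 TPM for plastid genes, and 1 h2a.z library is as high in seed markers, where the lower SD bar of h2a.z is cut at 0.

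The effect of H2A.Z loss was set against that in the other background, with which it shares no library. There 8900 genes (47.2%) were called, 5449 higher (28.9%) and 3451 lower (18.3%). At least 2-fold changes were called for 570 genes that were higher (3.02%) and 395 that were lower (2.1%), and at least 4-fold ones for 101 (0.536%) and 92 (0.488%). Genes called higher in both backgrounds numbered 2614, which is 66.5% of those higher with the knockdown and 48% of those higher without it. Genes called lower in both numbered 1425, or 54.7% and 41.3%. Opposite calls were rarer, with 106 genes higher in the double mutant and lower in h2a.z, and 203 the other way round. Across the 18851 genes the log2 fold changes of both backgrounds had a Pearson r of 0.602, as a description.

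The difference between the effects was tested directly and called in 3298 genes (17.5%), with 1394 positive (7.39%) and 1904 negative (10.1%). It was at least 2-fold in 193 positive (1.02%) and 353 negative (1.87%) cases. Of the 553 genes that changed at least 2-fold in the double mutant, 209 (37.8%) were called for the difference, and 160 of these had the larger change there. Of the 965 genes that changed at least 2-fold in h2a.z, 564 (58.4%) were called for it, and 544 of these had the smaller change in the knockdown background. Both counts follow in part from choosing genes by a large value in 1 background. Of 4552 genes called in Col only, 1619 (35.6%) were called for the difference, so for the other ones a missed threshold does not show that the effects differ. The backgrounds also differ in how much HTA9 was kept, and the alleles of the lines are not known here. Their part in the difference cannot be told apart from that of H3.3.

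The most positive differences were mostly of genes lost in h2a.z and kept in the double mutant. AT4G16880, a leucine-rich repeat gene, was listed at 0 in all 3 h2a.z libraries, with 69.2, 64 and 63.2 TPM in Col, and had 39.2, 35.8 and 37.7 TPM in the h3.3kd;h2a.z libraries, against 49.1, 51 and 45.7 TPM in the h3.3kd libraries. RPP5 (AT4G16950), a TIR-NBS-LRR resistance gene that lies nearby on chromosome 4, had 0.352, 0.37 and 0.359 TPM in the h2a.z libraries, against 31.4, 29.5 and 29.5 TPM in the Col libraries, and 25.3, 25.4 and 22.8 TPM in the h3.3kd;h2a.z libraries, against 28, 27.2 and 27.6 TPM in the h3.3kd libraries (difference log2 4.35, SE 0.10, adjusted p = 1.27e-12). These genes belong to clusters of close copies whose reads may be divided among them. AT4G19500, a further resistance gene, and AT5G51620, annotated as a UPF0172 protein, were listed at 0 in h2a.z and averaged 18.4 against 20.4 TPM and 17.8 against 14.6 TPM in the double mutant against h3.3kd. QQS (AT3G30720), which affects starch content, was listed at 0 in h2a.z, with 7.17, 4.4 and 4.63 TPM in Col, and rose in the double mutant, with 13.4, 15.4 and 14.6 TPM in the h3.3kd;h2a.z libraries, against 2.14, 2.71 and 2.55 TPM in the h3.3kd libraries (log2 2.16, SE 0.15, adjusted p = 6.13e-08). AT1G13609, a defensin-like gene, fell in h2a.z, with 2.06, 3.7 and 2.53 TPM in the h2a.z libraries, against 84.7, 93.5 and 109.9 TPM in the Col libraries, and averaged 9.26 against 12.2 TPM between the double mutant and h3.3kd, where it was not called (adjusted p = 0.278).

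The most negative differences were mostly genes that rose in h2a.z and rose less or not at all in the double mutant. MES18 (AT5G58310), a methyl esterase, had 69.3, 67.5 and 61.8 TPM in the h2a.z libraries, against 2.09, 3.65 and 2.42 TPM in the Col libraries, and 1.94, 1.01 and 1.74 TPM in the h3.3kd;h2a.z libraries, against 0.434, 0.426 and 0.65 TPM in the h3.3kd libraries (difference log2 -3.44, SE 0.23, adjusted p = 2.41e-07). OCT6 (AT1G16370), an organic cation transporter, had 17.5, 29.4 and 33.4 TPM in the h2a.z libraries, against 2.85, 2.69 and 2.56 TPM in the Col libraries, and 3.27, 2.6 and 1.65 TPM in the h3.3kd;h2a.z libraries, against 3.21, 3.25 and 3.03 TPM in the h3.3kd libraries (difference log2 -3.13, SE 0.28, adjusted p = 4.21e-06). The 3 double mutant libraries of OCT6 overlapped those of h3.3kd, while its h2a.z libraries lay above all of Col. AT1G19565 and AT1G52800, a protein with no annotated role and an oxygenase, were near 0 in the double mutant, h3.3kd and Col and higher in h2a.z (difference log2 -3.11 and -2.66). AT4G16857, a further TIR-NBS-LRR gene, was higher in h2a.z than in Col (log2 2.25) and lower in the double mutant than in h3.3kd (log2 -1.07). AT3G16670, of the Pollen Ole e 1 family, had 18.6, 5.54 and 12.8 TPM in the h3.3kd;h2a.z libraries, against 54, 72.4 and 86.6 TPM in the h3.3kd libraries (log2 -2.55, SE 0.30, adjusted p = 1.41e-05), and was not called in h2a.z against Col (log2 0.61, adjusted p = 0.105).

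**Figure D5:**
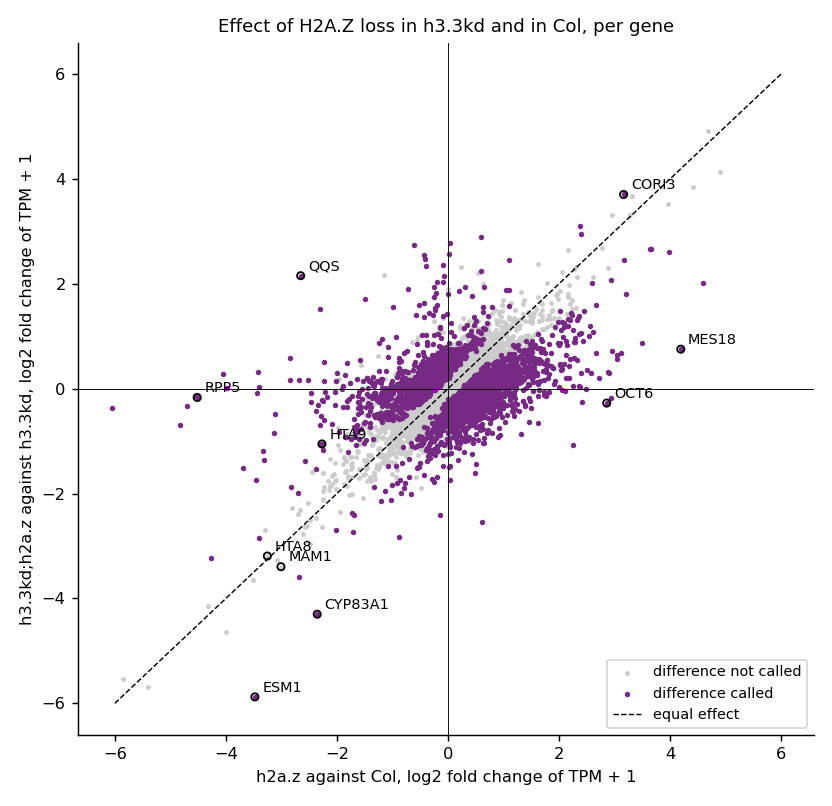
Log2 fold change of H2A.Z loss in Col (horizontal axis, h2a.z against Col) and in h3.3kd (vertical axis, h3.3kd;h2a.z against h3.3kd) for 18851 genes. Each point is a gene, purple points are the 3298 genes called for the difference and the dashed line marks equal effects; CYP83A1 and ESM1 lie below it and RPP5 and QQS above it.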

How the data were processed

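RNA of 12 libraries (4 genotypes, 3 each) was compared from 1 table of TPM deposited by the authors, with 23893 genes and 1 column per library. The way the authors computed TPM, not given in the sources used here, may affect short genes and close copies. In the submitters' processing notes stand the build TAIR10, DESeq2 1.26.0, HTSeq 0.11.2, HISAT2 2.1.10 and fastp 0.20.1, without role or order. Per the labels' protocols, a MiniBEST kit for plants (Takara) gave the RNA and an NEBNext Ultra kit the libraries. Strand and poly(A) selection were steps not given in the sources used here, so antisense and overlapping genes cannot be told apart. The total count per library is unknown, so no counting interval is given, and relative depth was read from the most common ratio of low values to Col replicate 1.

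Log2(TPM + 1) of genes that averaged at least 1 TPM was analysed with limma 3.58.1 (R 4.3.3), in a linear model of 4 groups over all 12 libraries, with 8 residual degrees of freedom, a mean-variance trend, two-sided tests and Benjamini-Hochberg adjustment over all genes tested. The fit was run on simulated data with independent normal noise and few changed genes. That setting is simpler than these data, so it does not show that the calls above hold. On the log2(TPM + 1) scale fold changes of low genes are understated. Sums per library were compared with exact two-sided permutation tests. RefSeq TAIR10.1 gave symbols for the 23739 identifiers it matched, while 154 organelle identifiers had no match. Promoter sequences and coordinates are those of RefSeq TAIR10.1.

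The comparison, the 30 lists of 408 genes and the tests were chosen with earlier results of these data known, and 406 list genes are in the table. THI2.1 and SMR5 were not analysed here. List genes that averaged under 1 TPM were not tested. Lists were given no test of their own: their counts are read against the shares of all genes called. The text names the H2A.Z and H3.3 genes, PIF4, YUC8, IAA19, HSP70 and FLC. It adds the 12 largest rises and 12 largest falls among called genes without overlap that average at least 5 TPM in either group, and the 6 most positive and 6 most negative called differences between backgrounds with a mean of at least 5 TPM in 1 of 4 groups. Each list adds its called members, at most 5 by size of change, and all members of lists of at most 5. SVP, SOC1, FRI, HSFA7A, HSP17.4, HSP17.6C, IIL1, LHCB1.3, LHCB2.1, RBCS1A, RCA, PLT1 and STM were named outside this rule, after their values were seen. The same holds for the markers PI, SEP3, SEP2, SHP1, AP3, OLEO1, OLEO2, OLEO4, RSL4 and COBL9. Alternatives were a pseudocount of 0.1, no filter, a filter of 5 TPM, rescaling by median ratios, nuclear genes only, a replicate block, a constant prior variance, the 6 libraries alone, a threshold of 0.01, and leaving out each library.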

Additional observations from a re-analysis of the deposited data

Results flagged for a closer look

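Effects of H2A.Z loss that differed between the h3.3kd and Col backgrounds were picked out by the test of the difference itself (limma, adjusted over all genes tested), which called 3298 genes. Each value here is the log2 effect in h3.3kd minus that in Col. The unequal fall of HTA9 and the unknown alleles of the lines cannot be told apart from the part of H3.3. The most positive were AT4G16880 at 5.69, QQS at 4.81, AT4G19500 at 4.42, AT1G13609 at 4.37, RPP5 at 4.35 and AT5G51620 at 4.32. AT4G16880, QQS, AT4G19500 and AT5G51620 are listed at 0 in all h2a.z libraries, so their values depend on the pseudocount and are no bound. The most negative were MES18 at -3.44, AT4G16857 at -3.32, AT3G16670 at -3.16, OCT6 at -3.13, AT1G19565 at -3.11 and AT1G52800 at -2.66.

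Among the members of the lists with the largest changes, differences of at least 1 on the log2 scale were called for HTA9 at 1.22, IMA3 at 2.29 and SEN1 at 1.11, which fell less or not at all in h3.3kd. They were negative for CYP83A1 at -1.95, RD29B at -1.52, MYB51 at -1.28, COR15B at -1.25, PAP2 at -1.16 and IPMDH1 at -1.02, each of which was lower in the double mutant than in h3.3kd.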

How the results depend on the processing

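The count of genes called in the double mutant against h3.3kd was between 5041 and 6989 without each of the 12 libraries in turn, beside 6536 with all. The difference between backgrounds gave 2377 to 4135 calls and h2a.z against Col 7630 to 9372. Without double mutant replicate 1 there were 3351 higher and 3159 lower calls, and without replicate 3 there were 4254 and 2080. At a threshold of 0.01, 4288 genes were called in the double mutant, of which 1652 were lower. The count of called genes with at least a 2-fold change, 553, was 894 with a pseudocount of 0.1 and 365 with a filter of 5 TPM, which tests fewer genes. With that filter it was 315 for the difference (546 otherwise) and 545 in Col (965 otherwise). The other counts stayed within 1.5 times. Rescaling gave 1826 positive and 1982 negative differences, and 4723 higher and 4599 lower calls in Col.

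Replicate numbers showed no sign of pairing: between the double mutant and h3.3kd the deviations of same-numbered libraries correlated at -0.17 to -0.01, and between any groups at most at 0.08. Different-numbered libraries of the double mutant and h3.3kd gave -0.108 to 0.152. The deviations are from means of 3 libraries, so this check cannot exclude pairing. With the replicate block 6243 genes were called in the double mutant, 2938 for the difference and 8636 in Col.

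Over 21 alternatives, the effects of 155 named genes gave 3226 values, of which 3073 stayed on the same side of the threshold, 147 lost the call and 6 gained it. For the difference 2730 of 2916 stayed, 143 lost it and 43 gained it. SOC1, FRI and IIL1, named after their values were seen, are not among the 155, and their lost calls are described above. No called effect reversed. The lost calls listed gene by gene above are mostly those without 1 library. With the 6 libraries alone, HTR8, EMF2, CYCB1;3, CDKB1;1 and WOX5 also lost their calls (adjusted p = 0.0535 to 0.122). The heat shock list had 11 to 13 members called higher and the aliphatic glucosinolate list 14 or 15 lower, or 12 of the 12 tested with a filter of 5 TPM. With a pseudocount of 0.1, HTA8 was at log2 -6.08 and CYP79F1 at -5.75. Sums of 3 against 3 libraries cannot reach p below 0.1, and unknown depth limits low genes, above all in h2a.z replicate 1.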

Other observations

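Some gene groups with a shared annotated product stood out from the 20.9% higher and 13.8% lower calls of all genes. They were chosen after their values were seen and no test was made of them. Of 13 genes annotated as TCP-1/cpn60 chaperonins, which fold actin and tubulin in the cytosol or other proteins in plastids, 10 were called higher in the double mutant than in h3.3kd and none lower, 8 were higher with rescaled TPM and 5 without h3.3kd replicate 1. AT3G18190 averaged 145 ± 10.8 TPM in h3.3kd;h2a.z and 105 ± 3.62 TPM in h3.3kd (SD, n = 3 each; log2 0.46, SE 0.06, adjusted p = 4.2e-05). Of 95 genes whose product begins with ribosomal protein S or 40S, 56 were called higher and 9 lower, and of 172 for ribosomal protein L or 60S, 78 were higher and 24 lower. AT5G39850, annotated as ribosomal protein S4, averaged 112 against 43 TPM, the double mutant first (log2 1.35, SE 0.12, adjusted p = 9.59e-07). In h2a.z against Col the same ribosomal groups had 58 and 75 members called higher and 10 and 34 lower, beside 28.9% and 18.3% of all genes. Tau-class glutathione transferases, which detoxify reactive compounds, went the other way, with 11 of 22 called lower and 2 higher, and 7 lower without double mutant replicate 3 or h3.3kd replicate 2. Beside GSTU8, GSTU20 averaged 56.4 against 190.1 TPM (log2 -1.75, SE 0.09, adjusted p = 3.6e-09). Of 40 glycine-rich proteins 19 were lower and 3 higher, with AT2G32690 at 78 against 224 TPM (log2 -1.51, SE 0.08, adjusted p = 3.71e-09). Of 46 lipid-transfer and 2S albumin family members 19 were lower and 5 higher, and 16 were called for the difference between backgrounds in the negative direction against 1 in the positive, beside 10.1% and 7.39% of all genes.

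Large changes were not spread evenly over the chromosomes, a view also taken after the values were seen. Of 18761 nuclear genes placed on RefSeq TAIR10.1, 507 (2.7%) were called and changed at least 2-fold in the double mutant. The share was 4.04% on chromosome 3 and 3.53% on chromosome 2, against 1.46% on chromosome 1, 2.4% on chromosome 4 and 2.63% on chromosome 5. Of 74 genes with at least a 4-fold change, 33 lay on chromosome 3, 29 of them among the 2228 genes up to AT3G30720 (1.3%), and 4 among the 1483 after it (0.27%). That boundary is QQS, itself 1 of the 74 genes. It was chosen with these values known, so the contrast of the shares follows in part from that choice. Of these 74 genes 69 were called in the same direction in h2a.z against Col, and 55 changed at least 4-fold there as well. In h2a.z against Col the 4-fold share of the same stretch was 1.89%, beside 1.03% over all nuclear genes. The cause was not tested.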
